A study of Homo sapiens with 6 samples.

Results

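The genes described here are 40 genes of glycolysis and of the cellular response to low oxygen, measured after knockdown of S100A10 in MDA-MB-231, a triple-negative line of human breast cancer cells. They are the glucose and lactate transporters, the enzymes from hexokinase to lactate dehydrogenase, the kinases that set glycolytic flux, the hypoxia-inducible factors (HIF) with their oxygen sensors, and HIF targets outside glycolysis. They were taken by gene symbol from a named list, which was chosen with earlier results of these data known. Of the 40, 35 had a probe set among the 16965 on the array table, each with a single probe set, and SLC16A1, SLC16A3, PFKFB4, CA9 and ANGPTL4 were not analysed here. The question was whether these genes differed with either hairpin from the control, whether the hairpins differed from each other, and whether glycolytic enzymes and hypoxia genes did so alike.

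Cells of all 3 groups carried a lentiviral short hairpin RNA and grew in RPMI1640 medium with 10% serum, penicillin, streptomycin and 2.5 µg/ml puromycin. The groups were shS100A10_5 and shS100A10_1, which carried different hairpins against S100A10, and the control hairpin group shNCT, with 2 arrays each. S100A10 encodes p11, the partner of annexin A2 at the plasma membrane. The labels list no treatment and give no oxygen level, glucose level or cell density, and nothing in them tells whether replicate arrays are separate cultures, so the p-values reflect the spread among these arrays, possibly a technical one. No batch is named in the labels.

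Glucose enters the cell through GLUT transporters, is phosphorylated by hexokinase and is broken down through phosphofructokinase, aldolase, enolase and pyruvate kinase to pyruvate, which lactate dehydrogenase turns into lactate. The transcription factors HIF1A and EPAS1 induce many of these genes when oxygen is low. With oxygen present, prolyl hydroxylases of the EGLN family mark the HIF proteins for degradation by the VHL ubiquitin ligase, so HIF is controlled mainly at the protein, which these arrays do not measure. MDA-MB-231 cells are known for high glycolytic activity even in oxygen.

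The values are log2 of the deposited array intensities, and each change is a difference of log2 group means from a limma fit over all 6 arrays. A change was called where limma's p was under 0.05 after Benjamini-Hochberg adjustment across the 16965 probe sets. Median array intensity lay between 232 and 238. S100A10 had intensities of 13600 and 9460 on the shS100A10_5 arrays and 1970 and 1550 on the shS100A10_1 arrays, against 88900 and 92900 on the shNCT arrays. The mesenchymal markers VIM, CD44, AXL, CAV1 and MSN lay between log2 13.70 and 16.65 on all arrays, while of the 3 measured luminal markers (6 listed) CDH1 lay between 3.15 and 4.05, GATA3 between 6.72 and 7.01 and EPCAM between 9.87 and 10.76. The 4 leukocyte markers lay between 5.11 and 7.71 and the 3 measured fibroblast markers between 4.28 and 6.57. Replicate 2 of shS100A10_5 stood apart on the first principal component, at 41.1, against 18.7 for replicate 1 and -18.2 to -10.0 for the other 4 arrays. Counts, list medians, called genes and the genes it moved most are also given without it, in a fit where the lone shS100A10_5 array is assumed to vary like the other groups.

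The most negative changes among these genes with shS100A10_5 were those of PFKL, ENO2, EGLN3 and ADM, and their promoter sequence is shown with that of ANKRD37, a HIF target whose intensity did not separate the groups, so that the HIF core motif can be seen beside the values. Each run is the 250 bases before the annotated transcription start, 5′ to 3′ on the gene's strand, from RefSeq in build GRCh38.p14. Capitals mark the core motifs ACGTG and GCGTG on either strand. PFKL lies at chr21:44299803-44300052 on the plus strand, ENO2 at chr12:6914330-6914579 on the plus strand, EGLN3 at chr14:33951075-33951324 on the minus strand, ADM at chr11:10304823-10305072 on the plus strand and ANKRD37 at chr4:185396591-185396840 on the plus strand.
PFKL: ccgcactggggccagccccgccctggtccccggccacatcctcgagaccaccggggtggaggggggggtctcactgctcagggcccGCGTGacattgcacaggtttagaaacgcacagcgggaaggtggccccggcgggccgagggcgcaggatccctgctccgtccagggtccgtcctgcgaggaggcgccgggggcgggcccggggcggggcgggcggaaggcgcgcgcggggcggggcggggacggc
ENO2: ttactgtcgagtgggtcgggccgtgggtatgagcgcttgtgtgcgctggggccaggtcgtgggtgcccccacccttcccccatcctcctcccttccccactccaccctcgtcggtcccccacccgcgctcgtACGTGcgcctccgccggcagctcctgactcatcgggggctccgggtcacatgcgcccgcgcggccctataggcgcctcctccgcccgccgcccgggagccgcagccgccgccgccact
EGLN3: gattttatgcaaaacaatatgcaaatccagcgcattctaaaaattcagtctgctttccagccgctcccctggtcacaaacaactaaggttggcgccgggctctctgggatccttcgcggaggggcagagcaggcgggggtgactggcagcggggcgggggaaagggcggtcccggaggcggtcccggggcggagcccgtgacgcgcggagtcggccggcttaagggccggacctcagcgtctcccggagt
ADM: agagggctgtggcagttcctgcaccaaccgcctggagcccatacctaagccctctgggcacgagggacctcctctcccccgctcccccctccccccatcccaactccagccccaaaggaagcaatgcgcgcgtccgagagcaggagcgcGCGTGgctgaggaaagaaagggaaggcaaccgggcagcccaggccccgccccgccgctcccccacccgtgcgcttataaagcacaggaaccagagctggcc
ANKRD37: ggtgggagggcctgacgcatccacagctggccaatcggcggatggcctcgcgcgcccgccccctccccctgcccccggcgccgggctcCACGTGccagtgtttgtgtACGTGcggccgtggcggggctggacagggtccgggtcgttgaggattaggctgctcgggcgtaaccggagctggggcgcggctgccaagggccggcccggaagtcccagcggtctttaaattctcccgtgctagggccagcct

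PFKL and ADM each held a single GCGTG match in this window, ENO2 a single ACGTG match, and ANKRD37 3 ACGTG matches, of which 2 are the opposite strands of the same CACGTG. No match was found in the EGLN3 window, which says only that these letters are not in these 250 bases. Of the 35 measured genes, 30 had promoters in the RefSeq table, with 54 windows, and SLC2A3, VHL, VEGFA, BNIP3L and NDRG1 were not matched. ACGTG was found in 21 of the 54 windows (38.9%), against 6501 of all 35116 promoters (18.5%), and GCGTG in 17 (31.5%), against 32.2% of all. Either motif stood in 18 of 36 windows of glycolytic enzymes, from 13 of 16 genes, and in 9 of 12 windows of hypoxia regulators and targets, from 8 of 10 genes, against 43.2% of all promoters. ACGTG lies within the E-box CACGTG, which 14.8% of the windows held, against 6.34% of all promoters. Windows of the same gene can overlap, and many of these genes are on the list as HIF targets, so these shares are a description.

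With shS100A10_5, a single enzyme gene, PFKL, fell and a single HIF target, NDRG1, rose, so 2 of the 35 genes were called (5.71%), against 3.18% of all probe sets, of which 1.75% were lower and 1.43% higher. With shS100A10_1, 0 of the 35 were called by limma, against 0.189% of all probe sets (0.1% higher and 0.0884% lower). EGLN3, which was lower, was the 1 gene at an unadjusted p under 0.05 with shS100A10_1, a share of 2.86% against 8.44% of all probe sets, with 4.28% higher and 4.16% lower. Between shS100A10_5 and shS100A10_1, PFKL and NDRG1 were again the 2 called genes, against 2.91% of all probe sets, with 1.48% lower and 1.43% higher. With shS100A10_5 against shNCT, an unadjusted p under 0.05 was found for 12 genes (34.3%), 9 lower and 3 higher, against 21% of all probe sets, with 10.3% lower and 10.7% higher. Between the hairpins there were 9 (25.7%), 7 lower and 2 higher, against 19.9% of all probe sets, with 9.8% lower and 10.1% higher. Without shS100A10_5 replicate 2, the count against shNCT was 6 (17.1%), 4 lower and 2 higher, against 15.7% of all probe sets, and the count between the hairpins was 4 (11.4%), against 15.6%.

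The 2 groups did not overlap for 22 of the 35 genes with shS100A10_5 against shNCT (17 lower and 5 higher), where 50.5% of all probe sets did not (23.8% lower and 26.7% higher). With shS100A10_1 against shNCT the count was 15 (11 lower and 4 higher), against 42.4% of all probe sets (20.5% lower and 21.9% higher). Between the hairpins it was 24 (18 lower and 6 higher), against 49% (23.4% lower and 25.6% higher). Without shS100A10_5 replicate 2, where a single array is set against 2 and overlap is rarer, it was 29 against shNCT (75.7% of all probe sets) and 30 against shS100A10_1 (75.1% of all probe sets). The change was below 0 for 24, 23 and 24 of the 35 genes in these 3 comparisons, against 46.7%, 49% and 48% of all probe sets.

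**Figure D1:**
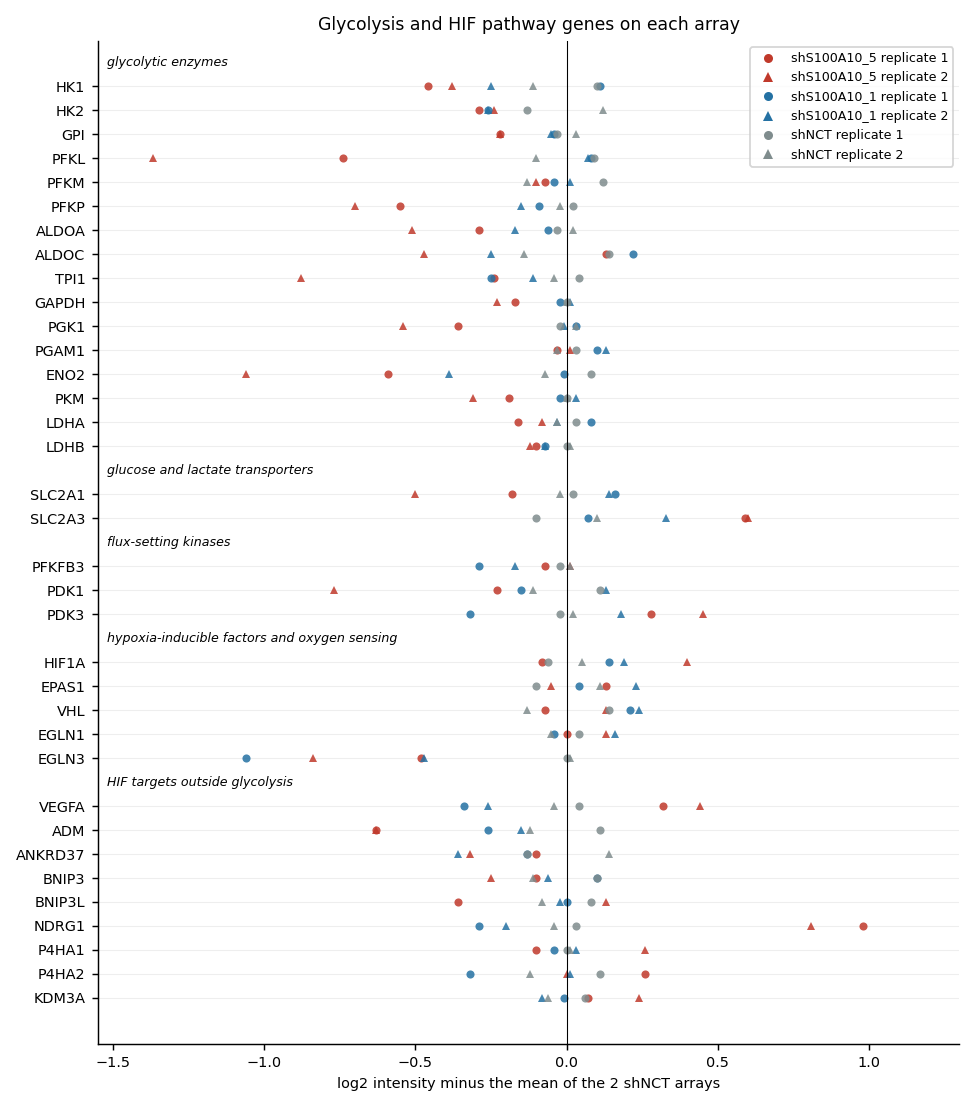
Log2 intensity of each of the 35 genes on each of the 6 arrays, as the difference from the mean of the 2 shNCT arrays (x axis), grouped by role. Circles are replicate 1 and triangles replicate 2, with red for shS100A10_5, blue for shS100A10_1 and grey for shNCT. The red points of most glycolytic enzymes lie left of 0, with PFKL farthest out, and those of NDRG1 lie right of 0.

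PFKL encodes the liver-type subunit of phosphofructokinase, the enzyme of the first committed step of glycolysis. Its log2 intensity was 9.95 and 9.32 on the shS100A10_5 arrays and 10.77 and 10.76 on the shS100A10_1 arrays, against 10.78 and 10.59 on the shNCT arrays. Both shS100A10_5 arrays lay below all 4 others, and those of shS100A10_1 lay at the level of the control. The fall with shS100A10_5 was 1.05 on the log2 scale (SE 0.22, log2 change -1.05; limma, adjusted p = 0.036), or 2.07-fold. Against shS100A10_1 the difference was -1.13 (SE 0.22; limma, adjusted p = 0.0276), and with shS100A10_1 against shNCT the change was 0.07 (limma, adjusted p = 0.967). The call against shNCT was lost without shS100A10_5 replicate 2 (change -0.73, adjusted p = 0.179) and without shNCT replicate 1 (-0.95, 0.164) or replicate 2 (-1.15, 0.157). The call between the hairpins was lost without shS100A10_5 replicate 2 (-0.81, adjusted p = 0.132) and without shS100A10_1 replicate 1 (-1.12, 0.112) or replicate 2 (-1.13, 0.0923).

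The 3 phosphofructokinase genes did not give the same values. PFKP, the platelet-type subunit, had 14.74 and 14.59 on the shS100A10_5 arrays, 15.20 and 15.14 on the shS100A10_1 arrays and 15.31 and 15.27 on the shNCT arrays, with shS100A10_5 below all other arrays. Its change with shS100A10_5 was -0.62 (SE 0.17; limma, adjusted p = 0.0718) and its difference between the hairpins -0.51 (adjusted p = 0.131). PFKM, the muscle-type subunit, had 10.33 and 10.30 with shS100A10_5, 10.36 and 10.41 with shS100A10_1 and 10.52 and 10.27 with shNCT, and both hairpin groups overlapped shNCT, while shS100A10_5 lay just below shS100A10_1 (change with shS100A10_5 against shNCT -0.08, SE 0.17; limma, adjusted p = 0.836). The differences between these 3 changes were not tested.

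ENO2, the neuron-type enolase, had the second largest negative change with shS100A10_5. Its log2 intensity was 6.18 and 5.71 on the shS100A10_5 arrays and 6.76 and 6.38 on the shS100A10_1 arrays, against 6.85 and 6.70 on the shNCT arrays, so both shS100A10_5 arrays lay below the other 4. The change was -0.83 (SE 0.21; limma, adjusted p = 0.065) with shS100A10_5, -0.21 (adjusted p = 0.872) with shS100A10_1, and the difference between the hairpins was -0.62 (adjusted p = 0.146). Without shS100A10_5 replicate 2 these were -0.59 (adjusted p = 0.271) against shNCT and -0.39 (0.449) against shS100A10_1. ENO1, the main enolase gene of most cells, had a change of -0.15 with shS100A10_5 (limma, adjusted p = 0.648). The intensities of ENO2 were low. On all arrays they lay within the range of the leukocyte markers, 5.11 to 7.71, as did those of ALDOC and ANKRD37. Without detection calls, the level of ENO2 cannot be told from background.

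All 16 glycolytic enzyme genes of the named list had a negative change with shS100A10_5, where 46.7% of all probe sets did. Their median was -0.26, against 0.02 for all probe sets, and the changes ran from -1.05 to -0.01. For 13 of the 16, the shS100A10_5 arrays lay below both shNCT arrays without overlap, as did 23.8% of all probe sets. PGAM1, PFKM and ALDOC were the 3 that overlapped. Without shS100A10_5 replicate 2, 14 of the 16 lay lower without overlap, against 36.7% of all probe sets, and 15 of the 16 changes were negative, ALDOC being at 0.13. With shS100A10_1 the enzyme median was -0.03, with 11 negative and 5 positive changes between -0.26 and 0.11. Between the hairpins it was -0.23, and 13 of the 16 lay lower with shS100A10_5 without overlap, against 23.4% of all probe sets. These comparisons share arrays, and no p is given for the list. Further isoforms, such as ENO1 and LDHC, were not among these 16 but on the extended list of glycolysis and pyruvate genes. With shS100A10_5 that list had 24 negative and 14 positive changes among 38 measured genes.

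Along the pathway, the hexokinases HK1 and HK2, which trap glucose in the cell, had changes of -0.42 (limma, adjusted p = 0.242) and -0.26 (0.426) with shS100A10_5. HK2 had 9.31 and 9.36 with shS100A10_5 and 9.34 and 9.34 with shS100A10_1, against 9.47 and 9.72 with shNCT, so it lay below the control with both hairpins, and its change with shS100A10_1 was also -0.26 (adjusted p = 0.759). GPI, which turns glucose-6-phosphate into fructose-6-phosphate, had a change of -0.22 (limma, adjusted p = 0.493). ALDOA and ALDOC, the aldolases, had -0.40 (0.222) and -0.17 (0.739), and TPI1, which interconverts the triose phosphates, had -0.56 (0.177). TPI1 had 13.69 and 13.05 with shS100A10_5 and 13.68 and 13.82 with shS100A10_1, against 13.97 and 13.89 with shNCT, so shS100A10_5 replicate 2 lay far below the other 5 arrays and replicate 1 within the range of shS100A10_1. The change of TPI1 was -0.24 (adjusted p = 0.555) without replicate 2 and -0.88 (adjusted p = 0.0437) without replicate 1.

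In the lower part of glycolysis, PGK1, the first enzyme that yields ATP, had a change of -0.45 with shS100A10_5 (limma, adjusted p = 0.161) and a difference of -0.46 between the hairpins (0.171). PGAM1, the phosphoglycerate mutase, had -0.01 (0.978), and its sign changed when each array was centred on its median. GAPDH, often used as a reference gene, had 17.26 and 17.20 on the shS100A10_5 arrays and 17.41 and 17.44 on the shS100A10_1 arrays, against 17.43 on both shNCT arrays. Its shS100A10_5 arrays lay below all others, by a change of -0.20 (SE 0.16) that was not called (limma, adjusted p = 0.528).

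PKM, the pyruvate kinase gene, had 15.75 and 15.63 with shS100A10_5 and 15.92 and 15.97 with shS100A10_1, against 15.94 on both shNCT arrays. Again the shS100A10_5 arrays lay lowest, with a change of -0.25 (SE 0.17; limma, adjusted p = 0.434). LDHA and LDHB, which convert pyruvate and lactate, had changes of -0.12 and -0.11 with shS100A10_5 (limma, adjusted p = 0.733 and 0.745). The table does not say how probes separate genes from their close copies, and several of these enzymes have processed pseudogenes.

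**Figure D2:**
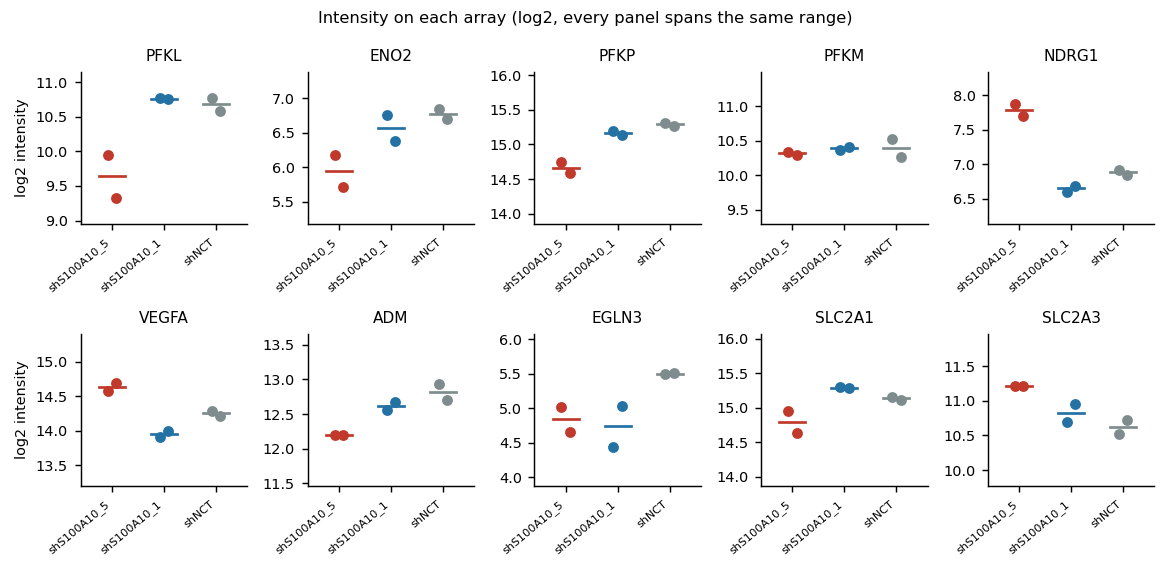
Log2 intensity of 10 genes on each array (points) with group means (lines), from left to right shS100A10_5, shS100A10_1 and shNCT, 2 arrays each. Every panel spans the same range of log2 units, so that the distances between groups can be compared, while levels of different genes cannot. All panels except PFKM and EGLN3 separate shS100A10_5 from both other groups, and of these genes only PFKL and NDRG1 were called. EGLN3 separates shNCT from both hairpins.

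The glucose transporter genes had changes of opposite sign with shS100A10_5. SLC2A1, which encodes GLUT1, had 14.96 and 14.64 on the shS100A10_5 arrays and 15.30 and 15.28 on the shS100A10_1 arrays, against 15.16 and 15.12 on the shNCT arrays. It was lowest with shS100A10_5 and highest with shS100A10_1, with a change of -0.34 (limma, adjusted p = 0.314) against shNCT and of -0.49 (adjusted p = 0.166) against shS100A10_1. Without shS100A10_5 replicate 2 these were -0.18 (0.666) and -0.33 (0.407) for SLC2A1. SLC2A3, which encodes the high-affinity transporter GLUT3, had 11.21 and 11.22 with shS100A10_5 and 10.69 and 10.95 with shS100A10_1, against 10.52 and 10.72 with shNCT. The shS100A10_5 arrays lay above all others, with a change of 0.60 (SE 0.18; limma, adjusted p = 0.096). SLC2A3 has a close copy, SLC2A14, whose signal was not separated here.

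Of the flux-setting kinases, PFKFB3, which makes the phosphofructokinase activator fructose-2,6-bisphosphate, had a change of -0.03 with shS100A10_5 (limma, adjusted p = 0.953). PDK1 and PDK3 encode kinases that switch off pyruvate dehydrogenase, and PDK1 is a known HIF target. PDK1 had a change of -0.50 (limma, adjusted p = 0.22), with 9.09 and 8.55 on the shS100A10_5 arrays, 9.17 and 9.45 on the shS100A10_1 arrays and 9.43 and 9.21 on the shNCT arrays. Its difference between the hairpins was -0.49 (adjusted p = 0.243). Leaving out 1 shS100A10_5 array moved both values of PDK1: they were -0.23 and -0.22 without replicate 2 (adjusted p = 0.635 and 0.665), and -0.77 and -0.76 without replicate 1 (0.0714 and 0.0816). PDK3 had a change of 0.37 (adjusted p = 0.331), the opposite sign to PDK1.

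None of the 5 hypoxia-inducible factor and oxygen-sensing genes was called in any comparison by limma. At an unadjusted p under 0.05, EGLN3 was the 1 of 5 with each hairpin, a share of 20%, against 21% of all probe sets with shS100A10_5 and 8.44% with shS100A10_1, and there were 0 of 5 between the hairpins, against 19.9%. HIF1A, the subunit of the main oxygen-regulated factor, had 14.61 and 15.09 with shS100A10_5 and 14.83 and 14.88 with shS100A10_1, against 14.63 and 14.74 with shNCT. The shS100A10_5 arrays spanned the whole control range, and the change was 0.17 with each hairpin (SE 0.20; limma, adjusted p = 0.679 with shS100A10_5 and 0.892 with shS100A10_1).

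EPAS1, which encodes the related factor HIF-2α, had 10.83 and 10.65 with shS100A10_5 and 10.74 and 10.93 with shS100A10_1, against 10.60 and 10.81 with shNCT, and all 3 groups overlapped. Its changes were 0.04 and 0.13 with shS100A10_5 and shS100A10_1 (limma, adjusted p = 0.936 and 0.918). VHL, the substrate receptor of the ligase that destroys HIF, had 10.29 and 10.49 with shS100A10_5 and 10.57 and 10.60 with shS100A10_1, against 10.50 and 10.23 with shNCT (changes 0.03 and 0.23; adjusted p = 0.942 and 0.809). EGLN1, the main oxygen-sensing prolyl hydroxylase, had 11.31 and 11.44 with shS100A10_5 and 11.27 and 11.47 with shS100A10_1, against 11.35 and 11.26 with shNCT (change 0.07 with each; adjusted p = 0.862 and 0.963).

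EGLN3, a prolyl hydroxylase that is itself a HIF target, had the most negative change of the 35 genes with shS100A10_1 and the third most negative with shS100A10_5. It had 5.02 and 4.66 with shS100A10_5 and 4.44 and 5.03 with shS100A10_1, against 5.50 and 5.51 with shNCT. All 4 hairpin arrays lay below both control arrays, while the hairpin groups overlapped each other. The change was -0.66 with shS100A10_5 (SE 0.22; limma, adjusted p = 0.127) and -0.77 with shS100A10_1 (SE 0.22; adjusted p = 0.33), and neither was called. Without shS100A10_5 replicate 2 the change of EGLN3 was -0.48 (adjusted p = 0.426), and without shS100A10_1 replicate 1 that with shS100A10_1 was -0.47 (0.83). The comparisons share the 2 control arrays. Its level lay close to 4.98, the lower quartile of all probe set means, and the table holds no detection calls.

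NDRG1, a stress-responsive gene induced by hypoxia and by differentiation, was the 1 called gene among the 9 measured HIF targets outside glycolysis (11.1%). This held with shS100A10_5 against shNCT, where 3.18% of all probe sets were called, and between the hairpins, where 2.91% were. The log2 intensity of NDRG1 was 7.87 and 7.70 on the shS100A10_5 arrays and 6.60 and 6.69 on the shS100A10_1 arrays, against 6.92 and 6.85 on the shNCT arrays. The 3 groups did not overlap, with shS100A10_5 highest and shS100A10_1 lowest. On the shNCT and shS100A10_1 arrays NDRG1 lay within the range of the leukocyte markers, 5.11 to 7.71, and there are no detection calls. NDRG1 rose by 0.90 with shS100A10_5 (SE 0.17, 1.86-fold; limma, adjusted p = 0.0284), and its change with shS100A10_1 was -0.24 (adjusted p = 0.776). Over shS100A10_1, the level with shS100A10_5 was 2.20-fold (log2 difference 1.14, SE 0.17; limma, adjusted p = 0.0113). The call against shNCT was lost without shS100A10_5 replicate 2 (change 0.98, adjusted p = 0.123) and without shNCT replicate 1 (0.93, 0.121) or replicate 2 (0.86, 0.191). The call between the hairpins was lost without shS100A10_5 replicate 2 (1.22, adjusted p = 0.0794) and without shS100A10_1 replicate 1 (1.09, 0.0728).

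VEGFA, the vascular growth factor gene, showed the same order of groups as NDRG1, without a call. It had 14.57 and 14.69 on the shS100A10_5 arrays and 13.91 and 13.99 on the shS100A10_1 arrays, against 14.29 and 14.21 on the shNCT arrays, and the 3 groups did not overlap. The change was 0.38 with shS100A10_5 (SE 0.17; limma, adjusted p = 0.229) and -0.30 with shS100A10_1 (adjusted p = 0.697), and the difference between the hairpins was 0.68 (adjusted p = 0.0606). ADM, the gene of the vasodilator peptide adrenomedullin, had a change of the opposite sign. It had 12.19 on both shS100A10_5 arrays and 12.56 and 12.67 on the shS100A10_1 arrays, against 12.93 and 12.70 on the shNCT arrays, so the groups again did not overlap. Its change was -0.63 with shS100A10_5 (SE 0.17; limma, adjusted p = 0.0753), with a difference of -0.43 (adjusted p = 0.207) between the hairpins.

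ANKRD37, a small ankyrin-repeat protein gene with a strong response to hypoxia, had 6.44 and 6.22 with shS100A10_5 and 6.41 and 6.18 with shS100A10_1, against 6.41 and 6.68 with shNCT (changes -0.21 and -0.25; limma, adjusted p = 0.562 and 0.799). Both hairpin groups overlapped the control. The mitophagy receptor genes BNIP3 and BNIP3L had changes of -0.17 and -0.12 with shS100A10_5 (adjusted p = 0.624 and 0.788). The collagen prolyl hydroxylase genes P4HA1 and P4HA2 had 0.08 and 0.13 (0.845 and 0.748), and KDM3A, a histone demethylase, 0.15 (0.656). Of the 9 targets, 5 had a positive and 4 a negative change with shS100A10_5, with a median of 0.08. With shS100A10_1, 8 of the 9 were negative, with a median of -0.15 and a range of -0.30 to 0.03.

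**Figure D3:**
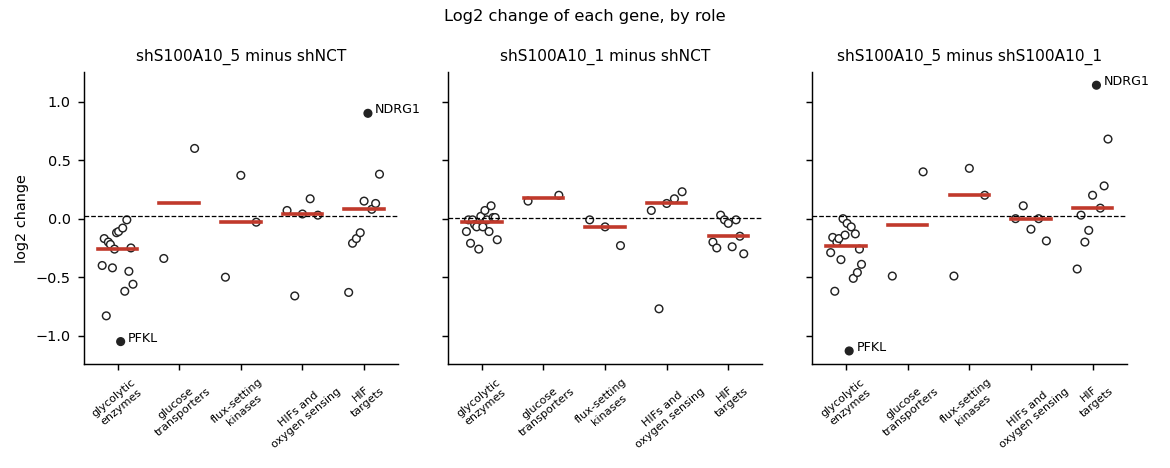
Log2 change of each gene (points) in 3 comparisons, by role, with the median of each role (red bars) and of all probe sets (dashed line). Filled points passed limma's adjusted p of 0.05. With shS100A10_5 the enzyme points lie below the dashed line with a median of -0.26, while those of the HIF targets lie on both sides of it.

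Set side by side, the enzymes and the hypoxia genes had different medians with shS100A10_5 and equal ones with shS100A10_1. The 14 hypoxia regulators and HIF targets outside glycolysis had a median change of 0.05 with shS100A10_5, with 5 negative. The 16 enzymes had -0.26, a difference of -0.31. With shS100A10_1 both medians were -0.03. Between the hairpins the enzymes had -0.23 and the hypoxia genes 0.02. The enzyme median relative to the shNCT mean was -0.23 on shS100A10_5 replicate 1 and -0.34 on replicate 2, with 15 of 16 genes below that mean on each, against -0.02 and -0.06 on the shS100A10_1 arrays. The hypoxia median was -0.07 and 0.13 on the shS100A10_5 arrays, so its sign followed the array, and without replicate 2 it was -0.07 against shNCT. Without replicate 2 the enzyme median was -0.23, with 15 of 16 negative. The lists were chosen with earlier results known, and the difference between their medians was not tested. It does not compare enzymes with HIF targets as a whole, since HIF also induces many glycolysis genes. The 5 transporters and flux-setting kinases, among them the HIF target PDK1 (-0.50), were in neither list. Their median with shS100A10_5 was -0.03, with 3 negative and 2 positive changes.

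**Figure D4:**
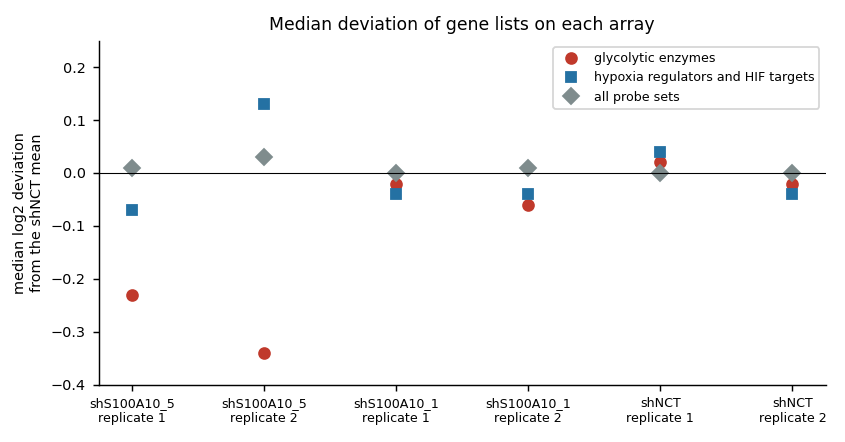
Median log2 deviation from the mean of the shNCT arrays (y axis) on each of the 6 arrays, for 16 glycolytic enzymes (circles), 14 hypoxia regulators and HIF targets outside glycolysis (squares) and all 16965 probe sets (diamonds). The enzymes lie at -0.23 and -0.34 on the shS100A10_5 arrays, while all probe sets lie at 0.01 and 0.03.

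Gene length moved with array signal. The deviation of shS100A10_5 replicate 2 from the mean of all arrays had a Spearman's rho of 0.247 with gene span across 15674 probe sets, which are not independent replicates, against 0.035 for replicate 1 and -0.207 to -0.007 for the other 4 arrays. The enzymes had a median span of 23774.5 bp and the hypoxia genes of 33890.5 bp, against 26622.5 bp for all. With a smooth trend on span removed from each array, the enzyme median was -0.31 with 15 of 16 negative, the hypoxia median was 0.00, and PFKL and NDRG1 were both still called. Fewer cells of a kind and less RNA per cell cannot be told apart in these bulk samples.

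Of 38 measured genes (45 listed) on an extended list of glycolysis and pyruvate genes, 0 were called by limma with either hairpin against shNCT. Of all probe sets, 3.18% were called with shS100A10_5 and 0.189% with shS100A10_1. Between the hairpins 1 of the 38 was called (2.63%), against 2.91% of all probe sets. At an unadjusted p under 0.05 there were 8 with shS100A10_5 (21.1%), 6 of them lower, against 21% of all probe sets, and 4 with shS100A10_1 (10.5%), against 8.44%. The list's median was -0.07 with shS100A10_5 and 0.07 with shS100A10_1, with 24 and 17 negative changes. PDK4, a further pyruvate dehydrogenase kinase gene, differed between the hairpins. It had 3.71 and 4.32 with shS100A10_5 and 5.18 and 5.17 with shS100A10_1, a difference of -1.16 (SE 0.26; limma, adjusted p = 0.0486), and 4.66 and 3.94 with shNCT. The changes against shNCT were -0.28 (adjusted p = 0.588) with shS100A10_5 and 0.87 (adjusted p = 0.347) with shS100A10_1. Its control level lay below the lower quartile of probe set means, and the call was lost under quantile normalization (adjusted p = 0.0555), median centring (0.0543), a robust variance prior (0.0525), with the span trend removed (0.0637) and without any 1 of the 4 hairpin arrays (adjusted p between 0.12 and 0.158).

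Of 41 measured genes (48 listed) on an extended list of HIF pathway genes and targets, 3 were called with shS100A10_5 (7.32%), against 3.18% of all probe sets, and 4 between the hairpins (9.76%), against 2.91%. With shS100A10_1, 0 were called by limma, against 0.189% of all probe sets, and 6 had an unadjusted p under 0.05 (14.6%), against 8.44%. At that unadjusted threshold there were 9 with shS100A10_5 (22%), against 21% of all probe sets. Between the hairpins there were also 9 (22%), against 19.9%. The list's median was 0.17 with shS100A10_5 and 0.03 with shS100A10_1. GYS1, the muscle-type glycogen synthase gene, had 10.47 and 10.26 with shS100A10_5 and 11.05 and 11.24 with shS100A10_1, against 11.37 and 11.29 with shNCT. It fell by 0.97 with shS100A10_5 (SE 0.18, log2 change -0.97; limma, adjusted p = 0.0251), and its difference between the hairpins was -0.78 (adjusted p = 0.0465). TMEM45A, a transmembrane protein gene induced by hypoxia, had 8.60 and 8.70 with shS100A10_5 and 7.81 and 7.84 with shS100A10_1, against 7.79 and 7.62 with shNCT. It rose by 0.95 with shS100A10_5 (SE 0.17; limma, adjusted p = 0.0223), with a difference of 0.83 (adjusted p = 0.0336) between the hairpins.

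CXCR4, the receptor gene of the chemokine CXCL12, had 12.07 and 11.99 with shS100A10_5 and 13.50 and 13.39 with shS100A10_1, against 12.82 and 12.73 with shNCT. The 3 groups did not overlap, and shS100A10_5 and shS100A10_1 lay on opposite sides of the control. It fell by 0.74 with shS100A10_5 (log2 change -0.74, SE 0.17; limma, adjusted p = 0.0452), a call that was lost with each array centred on its median (-0.72, adjusted p = 0.0522) and with the span trend removed (-0.68, 0.0544), and its change with shS100A10_1 was 0.67 (adjusted p = 0.246). The difference between the hairpins was -1.41 (SE 0.17; limma, adjusted p = 0.0052). RIOK3, an atypical kinase gene, had 11.86 and 12.16 with shS100A10_5 and 11.02 and 11.26 with shS100A10_1, against 11.31 and 11.58 with shNCT, with a difference of 0.87 between the hairpins (adjusted p = 0.044). Against shNCT, the calls of GYS1 and TMEM45A were lost without shS100A10_5 replicate 2 (changes -0.86 and 0.90; adjusted p = 0.15 and 0.141) and without either shNCT array (adjusted p between 0.101 and 0.182), and that of CXCR4 without any 1 of the 6 arrays (adjusted p between 0.0524 and 0.212).

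Between the hairpins, the call of GYS1 was lost without any 1 of the 6 arrays (adjusted p between 0.0511 and 0.21). Those of TMEM45A and RIOK3 were lost without any 1 array other than shS100A10_5 replicate 1 (adjusted p between 0.0607 and 0.231). That of CXCR4 was lost without shS100A10_5 replicate 2 (-1.37, adjusted p = 0.0737). The call of GYS1 was also lost with each array centred on its median (-0.77, adjusted p = 0.0506), and that of RIOK3 with the span trend removed (0.85, 0.0505).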

How the data were processed

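Per the labels' protocols, biotin-labelled total RNA was hybridised to cartridge arrays prepared with a whole-transcript kit. The deposited values are normalized intensities per probe set on a linear scale, made with Transcriptome Analysis Console per the submitters' processing notes; the sources used here give no version, background correction or normalization method. There are no detection calls, so the precision is limited by the number of arrays (2 per group).

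Probe sets were named from the platform annotation (15674 of 16965 had 1 symbol). Intensities were converted to log2 without further scaling. In R 4.3.3, limma 3.58.1 estimated 3 group means from the 6 arrays (lmFit and eBayes, 3 residual and 7.16 prior degrees of freedom), after the script was tested on simulated data. Contrasts were each hairpin against shNCT and shS100A10_5 against shS100A10_1, two-sided, adjusted over all probe sets at 0.05. Each gene stood for its brightest probe set. The members, lists and tests were chosen with earlier results of these data known.

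The naming rule took S100A10, all listed genes, and values on every array for called genes, the 4 largest changes per comparison, the oxygen-sensing genes, GAPDH and PKM. From the extended lists it took called genes. Array values of PFKP, PFKM, TPI1, ADM, PDK1, SLC2A1 and SLC2A3, and ENO1, were added after their values were seen. Promoter windows of 250 bases came from RefSeq (GRCh38.p14). Gene coordinates are left out, since no build is named for the array. Alternatives were quantile normalization, median centring, a filter on the dimmest 25% of probe sets, an intensity trend or robust prior in eBayes, the replicate number as a block, only the 2 groups compared, each array left out and, chosen after seeing the data, a gene span trend removed.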

Additional observations from a re-analysis of the deposited data

Results flagged for a closer look

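The targeted gene S100A10 differed between shS100A10_5 and shS100A10_1 by 2.7 on the log2 scale (limma, adjusted p = 0.00102). By the same direct test, the effects of the 2 hairpins differed for 7 genes of the lists (limma, adjusted p under 0.05). They were 2 of the 35 genes (5.71%), 1 of 38 on the extended glycolysis list (2.63%) and 4 of 41 on the extended HIF list (9.76%). Of all probe sets, 2.91% were called between the hairpins. As given above, the call of each of the 7 genes was lost when certain single arrays were left out. The differences on the log2 scale were -1.13 for PFKL and 1.14 for NDRG1 among the listed genes. Among the extended lists they were -1.16 for PDK4, -0.78 for GYS1, 0.83 for TMEM45A, -1.41 for CXCR4 and 0.87 for RIOK3. Each group had 2 arrays, too few for a check of single arrays against their own group.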

How the results depend on the processing

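Among the results for all probe sets, the count with shS100A10_5 against shNCT was 952 without the dimmest 25% of probe sets and 1454 with an intensity trend, against 539, and between 3 and 994 when an array was left out. With shS100A10_1 it was 60, 98 and, with only the 2 groups compared, 16, against 32, and 8 to 16 with an array left out. Between the hairpins it was 791, 1144 and 291, against 494, and 7 to 656 with an array left out. Of the 35 genes, 5 were called with shS100A10_5 without the dimmest 25% (PFKP, ENO2 and ADM added) and 8 with an intensity trend, 0 to 4 with an array left out, and 6 between the hairpins with an intensity trend, 0 to 2 with an array left out. With shS100A10_1 the count was 0 under all 14 alternatives. Enzyme medians with an array left out ran from -0.34 to -0.23 with shS100A10_5, -0.08 to -0.01 with shS100A10_1 and -0.31 to -0.18 between the hairpins. Hypoxia medians ran from -0.07 to 0.13, -0.10 to 0.00 and -0.06 to 0.11. Some signs changed. With shS100A10_5, PGAM1 was 0.01 with median centring and 0.04 with the span trend removed, where EPAS1 was -0.05 and P4HA1 0.00. With an array left out, the ranges with shS100A10_5 were -0.20 to 0.04 for PFKM, -0.04 to 0.01 for PGAM1, -0.07 to 0.14 for EPAS1, -0.64 to 0.07 for PDK4, -0.10 to 0.17 for VHL, -0.07 to 0.02 for PFKFB3, -0.36 to 0.13 for BNIP3L, -0.47 to 0.13 for ALDOC, -0.07 to 0.41 for HIF1A and -0.10 to 0.26 for P4HA1. With shS100A10_1 they were -0.02 to 0.17 for PFKL and -0.04 to 0.17 for EGLN1. The cause was not tested.

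The labels do not say whether the replicate numbers pair the arrays. The replicate differences of shNCT correlated with those of shS100A10_1 at -0.0223 and with those of shS100A10_5 at -0.035. Those of the hairpins correlated with each other at 0.188. These correlations cannot decide whether the arrays were paired, since a pairing with a small effect could give similar values. With the replicate number as a block, 3 of the 35 genes were called with shS100A10_5, ENO2 being added (adjusted p = 0.0382), and 625 probe sets in all, while the calls of GYS1 (adjusted p = 0.0504) and PDK4 between the hairpins were lost. The mean over several probe sets per gene was not run, since each gene had 1.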
